A study of Arabidopsis thaliana with 2 samples.

Results

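MSRB6, a methionine sulfoxide reductase of the B type, and GSTU18, GSTU26 and GSTU27, tau-class glutathione transferases, are 4 of the 13356 Arabidopsis thaliana genes that a probe set of the array names alone. Each was found through its symbol in the probe annotation, and each has 1 probe set. MSRB6 is locus AT4G04840, GSTU18 is AT1G10360, GSTU26 is AT1G17190 and GSTU27 is AT3G43800. The 4 genes were picked with their signals on these arrays already known, so their values are a description. The red light sample was whole Landsberg erecta seedlings grown in darkness for 7 days and then given 1 h of red light with a transmission maximum of 630 nm, at about 10 µmol per square metre and second. The dark sample was seedlings of the same accession and age that had 1 h more of darkness. In both groups the seeds had 2 days of cold and dark and then 2 h of white light, and the seedlings grew at 23 °C. The labels differ in the sucrose content they give, and none is stated here. The part of sucrose in the results was not tested. Each group is 1 array made from the pooled RNA of 5 seedlings, so there is no replicate error and no p-value.

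Methionine sulfoxide reductases repair methionine residues that have been oxidised in proteins or as the free amino acid. The A type acts on the S form of methionine sulfoxide and the B type on the R form, and most draw their electrons from thioredoxins or glutaredoxins. Glutathione transferases join the tripeptide glutathione to electrophilic compounds, which marks them for export to the vacuole. The tau class is found in plants, is known from herbicide and stress responses, and has members tied to phytochrome and far-red light signalling.

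Signals are linear MAS5 intensities in arbitrary units. Over all probe sets the median was 203 after red light and 191 in darkness. As a measure of background, 27 probe sets for bacterial transcripts reached at most 20.5 after red light and 11.5 in darkness. Genes are called measured here where the log2 signal, averaged over both arrays, was at or above percentile 40 over non-control probe sets, equal to a signal of 102. This left 7282 genes. For the GAPDH control the 3' probe set was 2.06 times as bright as the 5' probe set after red light and 2.11 times in darkness, and for the ubiquitin control 4.59 and 5.36 times. For the actin control it was 40.1 times after red light and 35.8 times in darkness. The root markers named alone by a probe set, PYK10, EXPA7 and EXPA18, 3 of 5 on the list, had a summed signal of 7803 after red light and 9842 in darkness. Nearly all of it was PYK10, with 7781.1 and 9763.7. EXPA7 and EXPA18, which mark root hairs, had signals of 8.8 and 13.5 after red light, both under the highest bacterial probe set, against 26.4 and 52.3 in darkness. The green tissue markers named alone, LHCB4.1 and LHCB4.2, 2 of 6, summed to 14273 after red light and 11109 in darkness. They did not move together: LHCB4.1 had 8944.9 and 9074.0, and LHCB4.2 had 5328.3 and 2035.2. The markers of the seed reserve stage, ICL, PAP85 and LEA4-5, 3 of 4, summed to 1190 after red light and 4877 in the dark. Most of that sum was ICL, with 855.6 and 4352.2. LEA4-5 had 251.6 and 412.8, and PAP85, which did not count as measured, 82.8 and 112.0. The part of these differences between the pools in the results below was not tested. In whole seedlings, fewer cells of a type and less RNA per cell cannot be told apart.

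The design sets 1 h of red light against 1 h more of darkness, to find transcripts that differ between them. All 4 genes counted as measured and all 4 were brighter on the red light array. MSRB6 and GSTU18 were at least 2-fold higher, a size reached by 4.82% of the measured genes. GSTU26 was above 1.5-fold, as were 12.7% of the measured genes, and GSTU27 lay just under it. Since the genes were chosen for such values, nothing is read from these counts.

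MSRB6 had a signal of 1437.7 after red light and 47.3 in darkness. The dark signal was 4.11 times that of the highest bacterial probe set on that array, and the red light signal 70.1 times that on its own array. This made a log2 ratio (red light over dark) of 4.93, or 30.4-fold, number 2 of 7282 from the top. None of the 500 measured genes nearest to MSRB6 in mean signal had a larger ratio, and the SD of their log2 ratios was 0.61. The geometric mean signals of these genes ran from 237 to 287, above the MSRB6 dark signal. Their SD is thus no measure of the spread at a signal as dim as that. The dark signal of MSRB6 on its own was under the level of 102 that the mean had to reach. MSRB6 thus counted as measured through its red light signal. Adding 22.1 to every signal before taking log2, which damps ratios of dim probe sets, gave a log2 ratio of 4.39.

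GSTU18 had a signal of 1574.4 after red light and 505.4 in darkness. Both were far above background, at 76.8 and 43.9 times the highest bacterial probe set of their array. The log2 ratio was 1.64, a 3.12-fold higher signal after red light and number 83 of 7282. Of the 500 genes nearest in mean signal, 2 had a larger ratio, and their log2 ratios had an SD of 0.50.

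GSTU26 had a signal of 581.2 after red light and 373.8 in darkness, a log2 ratio of 0.64 or 1.55-fold. It was number 813 of 7282, and 53 of the 500 genes nearest in mean signal had a larger ratio. GSTU27 had signals of 1455.2 and 973.1, a log2 ratio of 0.58, number 939 of 7282. Of its 500 nearest genes in mean signal, 44 had a larger ratio. The SD of log2 ratios was 0.57 among the genes nearest to GSTU26 and 0.50 among those nearest to GSTU27, and the medians were 0.05 and -0.06. As a measure of disagreement between probe sets, 37 pairs of measured probe sets for the same gene differed by a median of 0.27 in log2 ratio. Of the pairs, 14 differed by more than 0.5. Both probe sets of a pair were read on the same arrays, so this is no measure of the spread between arrays or pools. MSRB6, GSTU18, GSTU26 and GSTU27 have no second probe set to be set against.

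**Figure D1:**
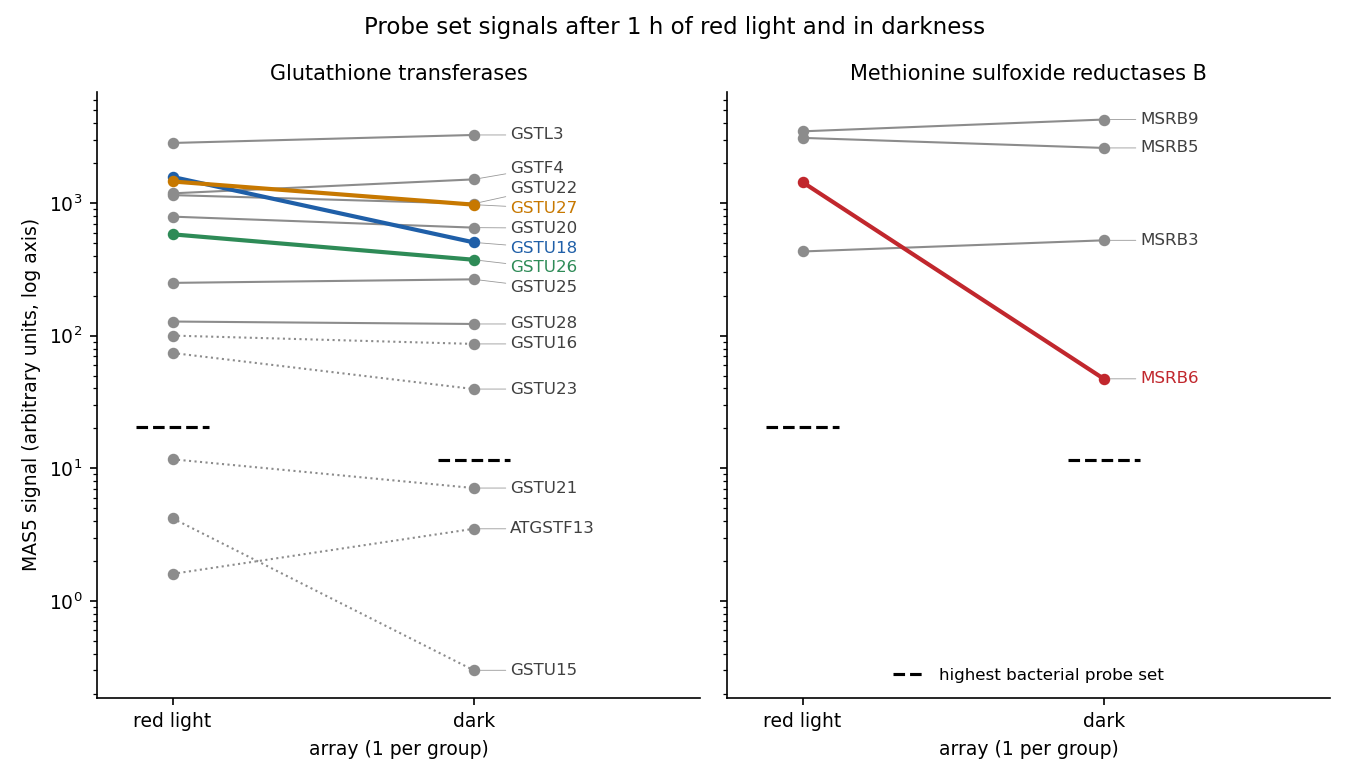
MAS5 signal (log axis) of every glutathione transferase (left) and B-type methionine sulfoxide reductase (right) named alone by a probe set, on the red light array and the dark array, 1 array each; dotted lines are genes that did not count as measured and dashed bars the highest bacterial probe set of each array. The line of MSRB6 joins 1437.7 after red light and 47.3 in the dark, while the lines of MSRB3, MSRB5 and MSRB9 are nearly flat; heights of different probe sets are not comparable levels.

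**Figure D2:**
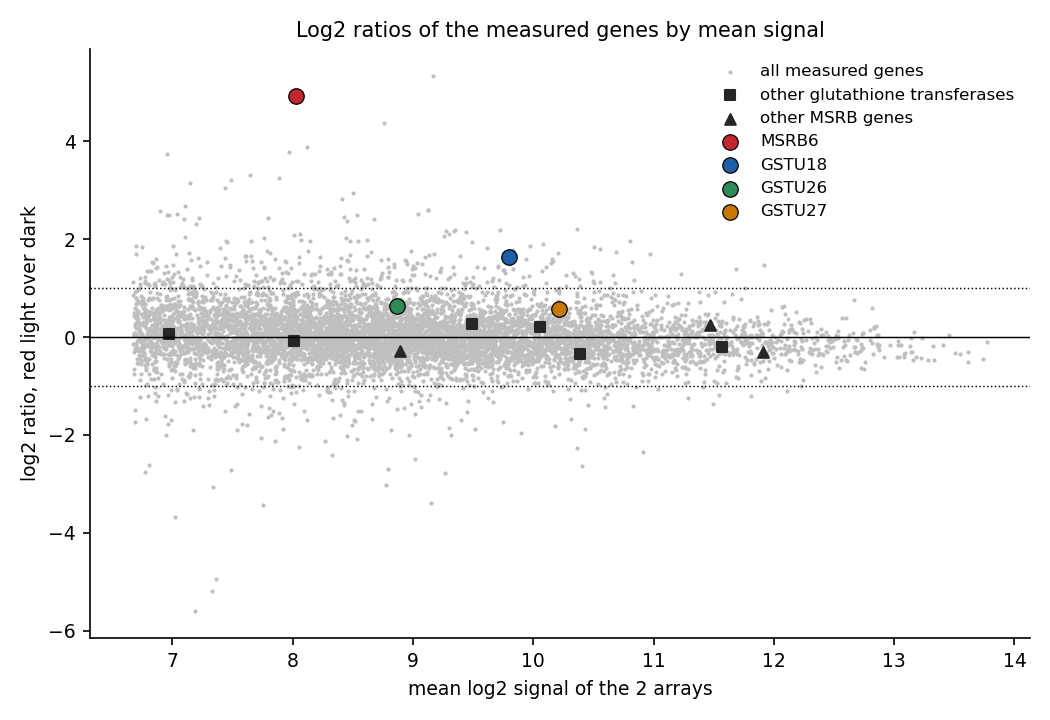
Log2 ratio of red light over dark against the mean log2 signal of both arrays, with 1 point per measured gene (7282) and dotted lines at 2-fold. MSRB6 at 4.93 lies above the 500 genes nearest in mean signal, GSTU18 at 1.64 lies near the upper edge, and GSTU26 and GSTU27 lie within the upper part of the cloud.

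Among the B-type methionine sulfoxide reductases, 4 of the 9 genes on the list were named alone by a probe set, and all 4 counted as measured. The other 5 are not analysed here. Of the 4, 1 was at least 2-fold higher, beside 4.82% of the measured genes. It was MSRB6, which was chosen with its ratio known, so nothing is read from this count. MSRB5 had signals of 3101.5 after red light against 2605.2 in the dark, a log2 ratio of 0.25. MSRB3, an enzyme of the endoplasmic reticulum linked to cold tolerance, had 431.6 and 523.8, a log2 ratio of -0.28. MSRB9 had 3475.2 and 4265.0, a log2 ratio of -0.30. Without MSRB6 the 3 genes had a median of -0.28, beside a median of 0.00 over all measured genes. The signs of MSRB3 and MSRB9 depended on the scale: with the arrays centred on the hybridization controls, which moved the median of all genes to 0.30, they were 0.02 and 0.00. That centring adds the same amount to every gene, so the place of both below the median gene could not change with it. MSRA5, the A-type reductase that a probe set names alone, 1 of 5 on the list, had signals of 739.4 and 839.7, a log2 ratio of -0.18, and 0.12 with that centring.

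MSRB6 stands in a tandem array with MSRB3, MSRB4 and MSRB5 in the gene order of the TAIR10.1 assembly, and MSRB5 is its nearest protein-coding neighbour on one side. The log2 ratio of MSRB6 exceeded that of MSRB5 by 4.67 and that of MSRB3 by 5.21. Over 2183 pairs of measured genes that stand next to each other, the median absolute difference in log2 ratio was 0.46. Of these pairs 364 differed by more than 1, and the largest difference was 5.64. MSRB6 was chosen with its ratio known, so nothing is read from its distance to its neighbours. MSRB4 has no probe set that names it alone and is not analysed here. Beyond the array, AT4G04880 had signals of 180.3 after red light against 88.1 in the dark, a log2 ratio of 1.03, and DER2.2, a Derlin gene of the endoplasmic reticulum, a log2 ratio of 0.14. Of the 10 protein-coding genes nearest to MSRB6, 5 on each side, 4 were measured, and their log2 ratios ran from -0.28 to 1.03.

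Of the 28 tau-class genes on the list, 11 were named alone by a probe set and 7 of these counted as measured. The other 17 are not analysed here. Of the 7, 1 was at least 2-fold higher, GSTU18, beside 4.82% of the measured genes. At least 2-fold lower were 0 of the 7, beside 2.44% of the measured genes. GSTU18 was chosen with its ratio known, so nothing is read from these counts. The median log2 ratio of the 7 was 0.28, but 3 of them were chosen for their ratios. The 4 others had a median of 0.14 and ran from -0.09 to 0.28. GSTU20, known in Arabidopsis as FIP1 for its binding to the far-red signalling protein FIN219, had signals of 790.2 after red light against 653.0 in the dark, a log2 ratio of 0.28. GSTU22 had 1148.8 and 989.3, a log2 ratio of 0.22. GSTU28 had 127.9 and 122.6, a log2 ratio of 0.06 that turned to -0.07 with quantile normalization.

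GSTU25 had signals of 250.2 after red light against 266.1 in the dark, a log2 ratio of -0.09, and 0.21 with centring on the hybridization controls. It neighbours GSTU26 in gene order, in a row with GSTU24, and the log2 ratio of GSTU26 exceeded that of GSTU25 by 0.73. GSTU20 and GSTU22, both in another row of tau genes, differed by 0.06. GSTU18 stands beside GSTU17, also named ERD9, a tau gene known to be under phytochrome control. GSTU17 has no probe set that names it alone, and its annotated span overlaps that of GSTU18 in the gene table. The part of GSTU17 transcripts in the GSTU18 signal was not tested. The 5 measured genes among the 10 nearest to GSTU18 had log2 ratios from -0.13 to 0.25, and the 4 nearest GSTU26 from -0.52 to 0.57. None of the 10 nearest protein-coding genes of GSTU27 was measured.

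**Figure D3:**
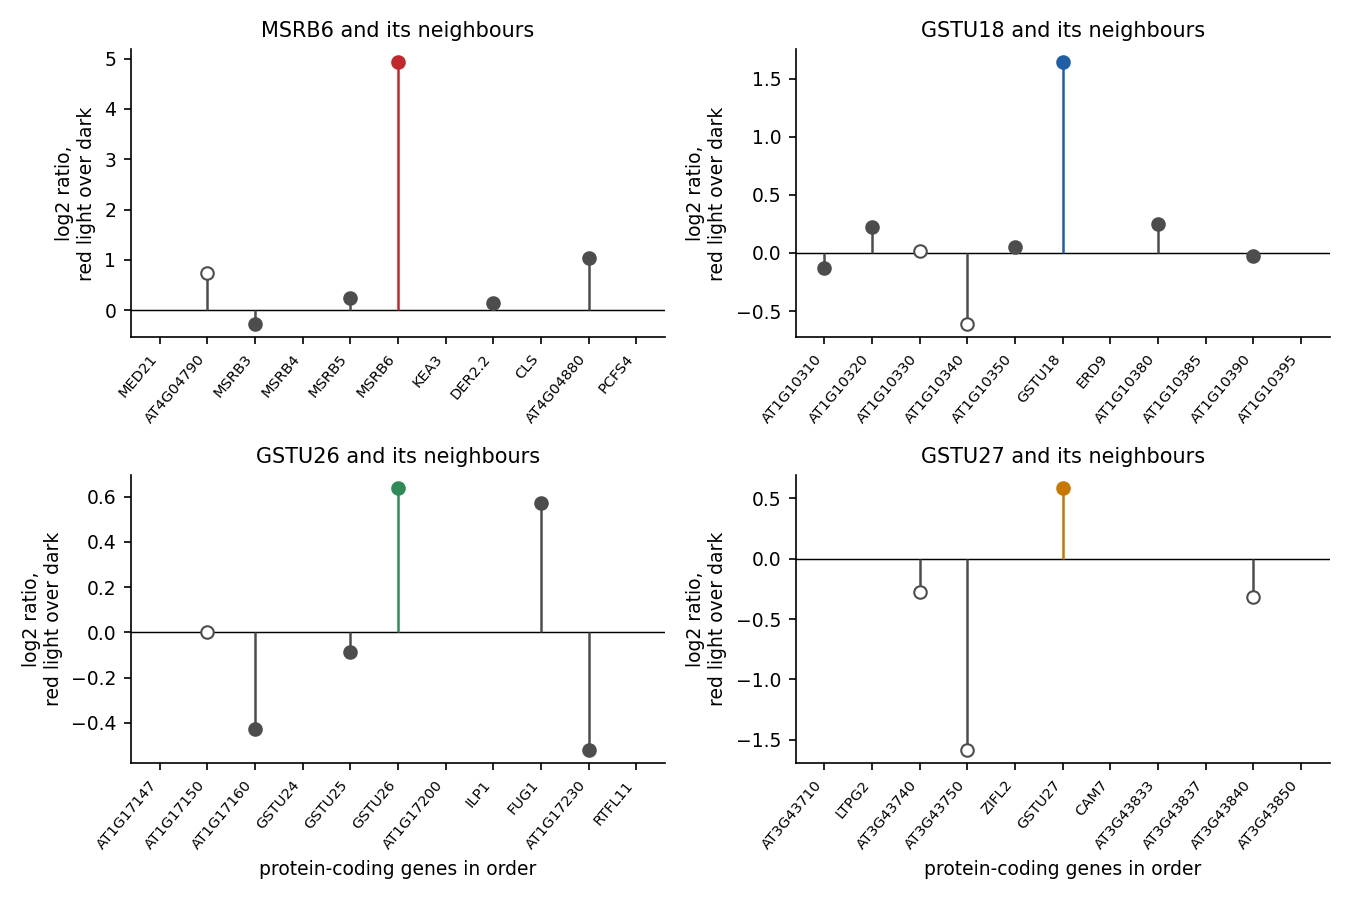
Log2 ratio of red light over dark for MSRB6, GSTU18, GSTU26 and GSTU27 and the 5 protein-coding genes on each side, in gene order; open circles did not count as measured, places without a point have no probe set that names the gene alone, and the vertical axis differs by panel. MSRB6 (4.93) and GSTU18 (1.64), chosen with their ratios known, stand above their measured neighbours. FUG1 (0.57), a plastid translation initiation factor gene, is close to GSTU26 (0.64).

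The other 4 tau genes were dim and did not count as measured. GSTU16 had signals of 100.2 after red light against 86.7 in the dark, and GSTU23 74.1 and 39.6. GSTU21 (11.7 and 7.1) and GSTU15 (4.2 and 0.3) lay under the highest bacterial probe set on both arrays, so no fold is given. In the phi class 2 of 13 genes were named alone by a probe set. GSTF4 had signals of 1184.0 and 1509.3, a log2 ratio of -0.35, and GSTF13, with 1.6 and 3.5, was under background on both arrays. GSTL3, of the lambda class, whose enzymes reduce rather than conjugate their substrates, had 2839.7 and 3262.9. Its log2 ratio of -0.20 became 0.10 with centring on the hybridization controls. Of 9 measured glutathione transferases of all classes 6 had a ratio above 0, beside 50.1% of the measured genes. Without GSTU18, GSTU26 and GSTU27 it was 3 of 6, with a median of -0.01.

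Genes that supply or recycle glutathione and thioredoxin were also described. GR1, the cytosolic and peroxisomal glutathione reductase, had signals of 2812.8 after red light against 1742.3 in the dark, a log2 ratio of 0.69. The organellar glutathione reductase GR had 885.8 and 797.5, a log2 ratio of 0.15. These are the 2 of 7 genes on the list of glutathione synthesis and turnover that a probe set names alone. Of the 2, 0 were at least 2-fold higher or lower, beside 4.82% higher and 2.44% lower over all measured genes. Nothing is read from this count. No gene of the glutathione peroxidase list or of the vacuolar conjugate transporter list had a probe set that names it alone.

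On the list of thioredoxin reductases and electron donors of B-type reductases, 3 of 8 genes were named alone by a probe set, and all 3 were measured. Of the 3, 0 were at least 2-fold higher or lower, beside 4.82% higher and 2.44% lower over all measured genes. NTRC, the plastid enzyme that joins a thioredoxin reductase to a thioredoxin, had signals of 2513.5 after red light against 1323.7 in the dark, a log2 ratio of 0.93. Of the plastid y-type thioredoxins, ty2 had 399.5 and 222.1, a log2 ratio of 0.85, and TY1 422.5 and 561.4, a log2 ratio of -0.41. NTRC (1.23) and ty2 (1.15) passed 2-fold with centring on the hybridization controls.

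A wider set of 12 measured genes, which includes these 3, was taken after the values had been seen from every gene whose name holds thioredoxin, glutaredoxin or peroxiredoxin. Its median was 0.29, beside 0.00 over all measured genes. Of the 12, 8 were above 0, TO1 by less than 0.01, beside 50.1% of all measured genes. At least 2-fold higher was 1 of the 12, beside 4.82% of all measured genes, and nothing is read from these counts. TRXF2, an f-type thioredoxin that activates Calvin cycle enzymes, had signals of 997.7 after red light against 479.5 in the dark, a log2 ratio of 1.06, and of 0.97 with median centring. The glutaredoxin GRXC1 had 748.4 and 412.9, a log2 ratio of 0.86, and of 1.16 with centring on the hybridization controls. GRXC2, a relative of GRXC1, had 2759.9 and 2953.8, a log2 ratio of -0.10. The mitochondrial o-type thioredoxins TO2 and TO1 had log2 ratios of 0.42 and 0.00, and the plastid thioredoxins THX and ATHM2 0.39 and 0.20. PRXIIF, a mitochondrial peroxiredoxin, had -0.15 and GRX480, a glutaredoxin that binds TGA transcription factors, -0.23. With centring on the hybridization controls GRXC2, PRXIIF and GRX480 were above 0. On the list of hydrogen peroxide and superoxide scavengers 2 of 15 genes were named alone by a probe set and both were measured, the plastid ascorbate peroxidases TAPX (0.15) and SAPX (0.01).

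**Figure D4:**
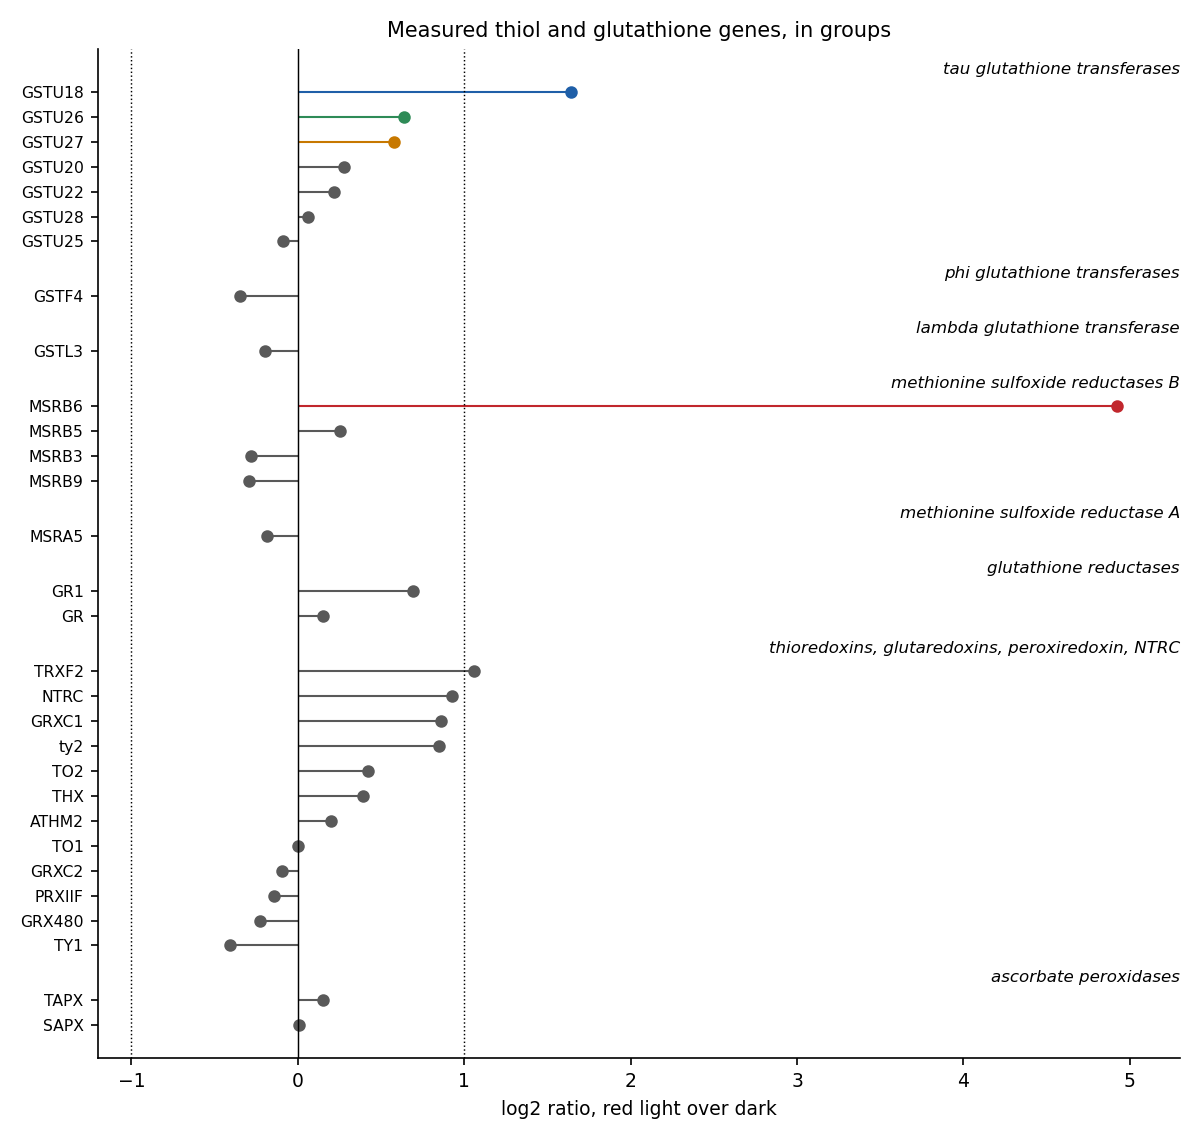
Log2 ratio of red light over dark of each measured gene of the glutathione, methionine sulfoxide and thioredoxin groups, 1 point per gene, with dotted lines at 2-fold. MSRB6 (4.93), GSTU18 (1.64) and TRXF2 (1.06) lie past the 2-fold line.

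The ratios of the 4 genes kept their direction and their side of 2-fold under 7 alternatives. Dropping cross-hybridizing probe sets and keeping the brightest probe set could not change them. Each gene has a single probe set, which is not of the cross-hybridizing kind. Median centring and centring on the hybridization controls move every gene by the same amount. MSRB6 ran from 4.39 with the pseudocount to 5.23 with centring on the hybridization controls, and GSTU18 from 1.55 with median centring to 1.94. GSTU26 ran from 0.55 to 0.94 and GSTU27 from 0.49 to 0.88, both lowest with median centring and highest with centring on the hybridization controls. These ranges show the choice of scale and are no measure of the spread between seedlings.

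**Figure D5:**
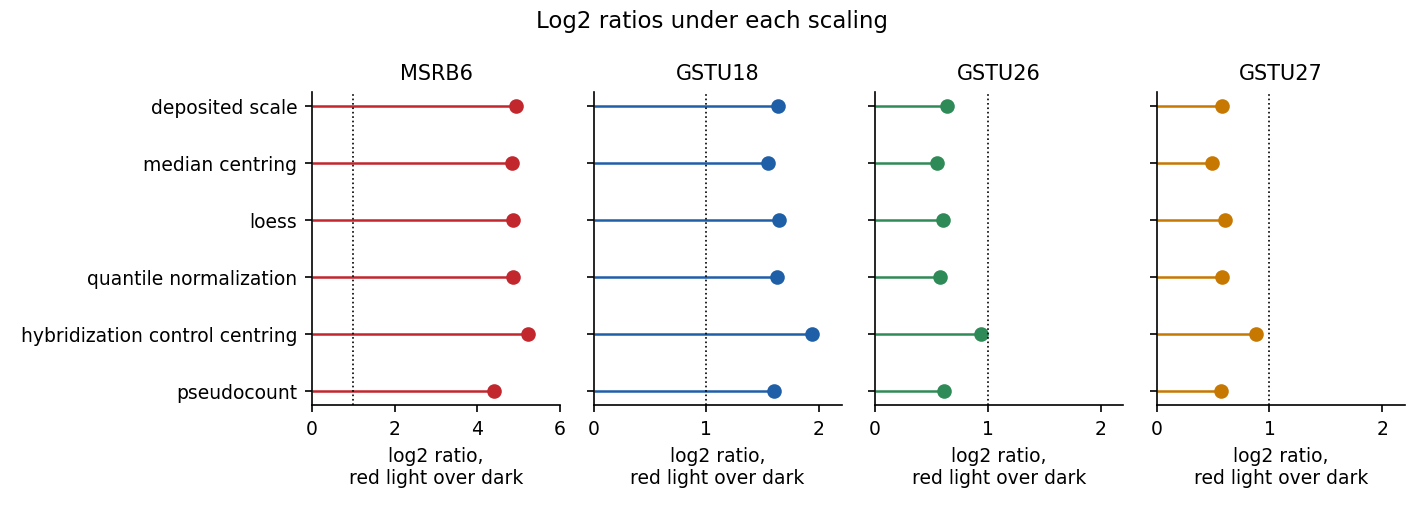
Log2 ratio of red light over dark of the 4 genes on the deposited scale and under 5 alternatives, with a dotted line at 2-fold. The horizontal axis of MSRB6 is longer than that of the others; GSTU26 (0.94) and GSTU27 (0.88) come closest to 2-fold with centring on the hybridization controls.

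The genes most like each of the 4 were taken as the 2 measured genes at the smallest distance in the plane of both log2 signals, which rests on 2 arrays and says nothing of shared function. AT2G27420, a papain-like cysteine protease gene, was nearest to MSRB6, with 1069.2 after red light and 72.2 in the dark, at a distance of 0.74. CHIL, a chalcone isomerase-like gene of flavonoid synthesis, followed at 0.82. Nearest to GSTU18 were the glycosyltransferase gene UGT88A1, with 1516.4 and 530.8, and AT3G47070, with 1688.3 and 494.2. GSTU26 was nearest to EXPB3, a beta-expansin gene, and to AT4G17245. GSTU27 was nearest to AT5G51110 and AT2G20050. The distances of GSTU26 and GSTU27 to these genes were between 0.01 and 0.03.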

How the data were processed

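The authors deposited linear intensity values, 1 per probe set. MAS5 (version 5) made them, per the submitters' processing notes. Its settings, and any genome build, are not given in the sources used. Per the labels' protocols, 20 ng of total RNA per sample was amplified and biotin-labelled. Of 22810 probe sets, 64 were controls, 13513 named 1 gene, 503 several and 8730 none. Of the 13356 genes, 13286 had an entry in the TAIR10.1 gene table, used for symbols and gene order only.

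Signals of 0 were set to 0.1, log2 was taken, and dark was subtracted from red light per probe set. Probe sets with several genes were left out, and those of 1 gene averaged. Calls were made at 2-fold. With 1 array per group no test exists, the number of arrays limits the precision, and the group cannot be told apart from any batch. The 4 genes and all lists were chosen with earlier results of these data known. Named were the 4 genes, every other glutathione transferase and B-type reductase named alone by a probe set, up to 3 members per further list, the markers and the most similar genes. Neighbours and the thioredoxin set were added after their values were seen. Steps were tested on simulated data. Python 3.11.15, numpy 2.4.6, pandas 2.3.3, statsmodels 0.14.6 and matplotlib 3.10.9 were used.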

Additional observations from a re-analysis of the deposited data

How the results depend on the processing

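No paired analysis was possible because there is a single array per group. The alternatives were median centring, loess (span 0.3), quantile normalization, centring on the 18 hybridization controls, a pseudocount, dropping cross-hybridizing probe sets, keeping each gene's brightest probe set, other filters and other thresholds. The log2 ratios of MSRB6, GSTU18, GSTU26 and GSTU27 kept their direction and side of 2-fold under the 7 alternatives that apply to a single gene. Of these, dropping cross-hybridizing probe sets and keeping the brightest probe set could not change genes with a single probe set of the plain kind. Against 351 higher and 178 lower genes on the deposited scale, the counts were 705 and 91 with centring on the hybridization controls, 1823 and 1279 with no filter, 172 and 89 with a filter at the 60th percentile, 925 and 652 at 1.5-fold, and 93 and 55 at 3-fold. Of the called genes 66.4% were higher on the deposited scale, 54.2% with median centring, 57.6% with quantile normalization and 88.6% with centring on the hybridization controls. With no filter, 2 tau genes, and 2 glutathione transferases in all, were at least 2-fold higher and 1 was 2-fold lower, because GSTU15 and GSTF13, both under background, then entered. At 1.5-fold 2 of the 7 measured tau genes, and 2 of the 9 measured glutathione transferases, were higher, beside 12.7% of the measured genes. Both times these were GSTU18 and GSTU26, which were chosen with their ratios known. Without the chosen genes the count was 0 in both lists. With the filter at the 60th percentile 0 B-type reductases were higher, because MSRB6 no longer counted as measured: its mean signal is low through its dark value.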
